A study of Mus musculus with 8 samples.

Results

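Sun5, Tsga10, Tekt2, Iqcf4, Flacc1, Npm2 and Prss21 are genes of sperm, testis and oocyte, or of the cilium from which the sperm tail is built. They were picked by the size of their log2 ratios on these arrays, so their values are a description and carry no test. The 7 genes have 10 spots among 12131 named spots of 8653 genes, on arrays of 20794 spots. All 10 spots had a value on all 8 arrays. A spot is called by its number in the deposited table. Its gene name rests on a shift of 11 between the numbers of the annotation and of the table, which was found in the values. Read without that shift, the swap component described below would be -0.22 for Sun5 and -0.20 for Tekt2. No spot intensity was used here, so whether these transcripts are near absent from brain was not tested.

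The mutant group was 4 male mice, 19 weeks old, of genotype ADAR-/-/GluR-BR/R: ADAR2, the brain enzyme that turns adenosine into inosine in double-stranded RNA, is missing, and both alleles of its essential target GluR-B already encode arginine. Total brain RNA of each mutant was hybridised to a pair of 2-colour cDNA arrays against 1 wildtype pool, likewise of male brains at 19 weeks. The design text and mouse identifiers give 4 pooled animals, while the labelling text states a different size. The mutant was in Cy5 and the pool in Cy3 on one array of the pair, and the dyes were exchanged on the other. The mouse is the replicate (n = 4), and the wildtype spread is not in any test, since all arrays share that pool. No group with the GluR-B alleles alone is named.

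A sperm is driven by a flagellum, whose core of microtubules, the axoneme, is shared with the motile cilia of other tissues. In brain, such cilia stand on the ependymal cells that line the ventricles. The sperm head carries the packed nucleus and the acrosome with the enzymes and surface proteins of fertilisation, while the oocyte stores proteins that remodel the chromatin of the incoming sperm. Most genes of these structures are switched on late in germ cell development and are best known from testis or ovary.

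The sources used here do not state which dye is the numerator of the deposited ratio. Each spot is therefore described by 2 quantities, both on the log2 scale. The mean ratio averages both arrays of a mouse, or takes the array with a value where its partner has none. For the swap component, the array with the mutant in Cy3 is subtracted from its partner with the mutant in Cy5, and the difference divided by 2. If the ratios are Cy5 over Cy3, the swap component is the contrast of mutant over pool, and if all ratios run the same way it is the effect of the dye. Usable values numbered 20211 to 20559 per array, and arrays of one orientation correlated at Pearson's r between 0.22 and 0.68 across spots. The array medians lay between -0.15 and -0.0045 with the mutant in Cy5, and between -0.57 and -0.085 with the mutant in Cy3. Adarb1, the gene of the missing enzyme, had swap components of -1.13, -1.22 and 0.01 at its 3 spots, and its mean ratio missed the threshold at all of them (limma, lowest adjusted p = 0.0962). With array medians subtracted, the swap component passed at the first 2 of these spots (limma, adjusted p = 0.0383 and 0.0424).

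Sun5 is a SUN domain protein of the nuclear envelope that ties the sperm tail to the head. With the mutant in Cy5 its spot, 14200, stood at 1.21, 1.68, 1.91 and 1.86 in mice 1 to 4, and with the mutant in Cy3 at -1.03, -1.10, -1.11 and -0.83. Both sets of arrays lay on opposite sides of 0 and did not overlap. The swap component was 1.34 ± 0.16 (SD, n = 4 mice), a 2.53-fold difference in size, and the mean ratio was 0.32 ± 0.18. From the highest, Sun5 was 21st among the 18797 spots with values on 8 arrays in the swap component.

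Tsga10 encodes a testis protein of the sperm tail, and its 2 spots differed. Spot 10402 stood at 1.33, 1.29, 1.22 and 1.40 with the mutant in Cy5, and at -0.98, -0.91, -1.67 and -1.31 with the mutant in Cy3. Its swap component was 1.26 ± 0.16 (SD, n = 4) and its mean ratio 0.05 ± 0.19. The SD of 0.08 over the arrays with the mutant in Cy5 was among the narrowest, since 1.10% of all spots had a smaller one. The second spot, 14932, stood at -0.15, -1.67, -0.98 and 0.26 with the mutant in Cy5, and at -1.90, -1.01, 0.05 and 0.08 with the mutant in Cy3. There the orientations overlapped and the swap component was 0.03 ± 0.62.

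Tekt2 is a tektin, a filament protein along the microtubules of the axoneme in cilia and flagella. Spot 5797 stood at 1.09, 1.68, 1.16 and 1.38 with the mutant in Cy5, and at -0.95, -0.94, -0.96 and -0.78 with the mutant in Cy3. The swap component was 1.12 ± 0.13 (SD, n = 4) and the mean ratio 0.21 ± 0.15, and 0.87% of all spots had a smaller SD with the mutant in Cy3. Its second spot, 18699, did not follow: it stood at 0.52, -0.78, 0.05 and -0.29 with the mutant in Cy5, and at -0.08, -2.40, 0.29 and 0.48 with the mutant in Cy3. The swap component of 18699 was 0.15 ± 0.52, and its lowest value in both orientations came from mouse 2.

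Iqcf4 is named for its IQ motif, the sequence by which many proteins bind calmodulin. Its spot, 12088, stood at 0.70, 1.45, 0.77 and 0.43 with the mutant in Cy5, and at -0.995, -0.96, -2.12 and -0.94 with the mutant in Cy3. The orientations did not overlap, with a swap component of 1.04 ± 0.34 (SD, n = 4) and a mean ratio of -0.21 ± 0.38.

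Flacc1 is a coiled-coil protein named for the flagellum. Spot 9646 stood at 0.33, 0.23, 1.22 and 1.05 with the mutant in Cy5, and at -2.55, -1.77, -1.16 and -0.22 with the mutant in Cy3. It kept the same opposition of signs, with a wider spread (swap component 1.07 ± 0.34, SD, n = 4; mean ratio -0.36 ± 0.70). Spot 10434 of the same gene stood at -0.52, 0.61, -2.05 and -0.32 with the mutant in Cy5, and at -2.78, -1.55, -0.81 and 0.53 with the mutant in Cy3, where both orientations overlapped. Its swap component was 0.29 ± 0.94 and its mean ratio -0.86 ± 0.82.

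Prss21, called testisin, is a serine protease anchored on the surface of sperm. Its spot, 12897, stood at -0.24, -1.21, -1.09 and -1.60 with the mutant in Cy5, and at -2.11, -2.64, -3.41 and -4.56 with the mutant in Cy3. All 8 values were below 0 and the orientations did not overlap. The mean ratio was -2.11 ± 0.79 (SD, n = 4), a 4.31-fold difference in size, and the swap component was 1.07 ± 0.33. Before the constant of its array is added, the value of -4.56 is a ratio of 0.026.

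Npm2 is the nucleoplasmin of oocytes, a histone chaperone that organises chromatin in the egg and early embryo. Its spot, 8024, stood at -0.89, -0.87, -3.03 and -2.11 with the mutant in Cy5, and at -3.53, -2.57, -2.17 and -2.71 with the mutant in Cy3. All 8 values were below 0, but the orientations overlapped and mouse 3 had its lower value with the mutant in Cy5. The mean ratio was -2.23 ± 0.38 (SD, n = 4) and the swap component 0.51 ± 0.75. From the lowest mean ratio, Npm2 and Prss21 were 65th and 107th among 20595 spots.

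**Figure D1:**
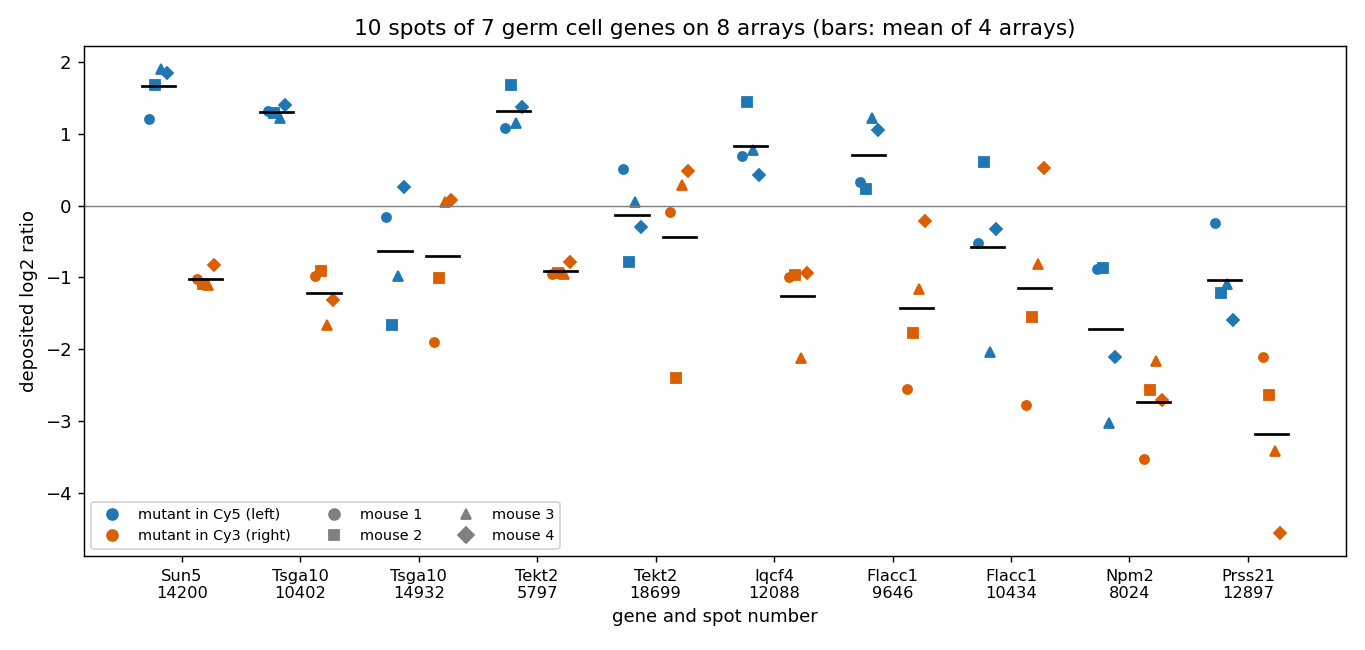
Deposited log2 ratios (vertical axis) of the 10 spots of the 7 genes (horizontal axis), with the 4 arrays that had the mutant in Cy5 left in blue, the 4 with the mutant in Cy3 right in orange, a marker per mouse and a bar at each mean. Sun5, Tsga10 spot 10402, Tekt2 spot 5797, Iqcf4 and Flacc1 spot 9646 lie above 0 in blue and below 0 in orange, and Npm2 and Prss21 lie below 0 throughout.

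The 10 spots thus fell into 3 kinds. For 5 spots all values were above 0 with the mutant in Cy5 and below 0 with the mutant in Cy3, for 2 spots all 8 were below 0, and the second spots of Tsga10, Tekt2 and Flacc1 had mixed signs. Over the array, 1.41% of 18797 spots had the first pattern, 0.654% its reverse and 12.4% had 8 values below 0. These shares are given as the background of a choice made on these values. On the 8 arrays, the spots of one gene differed by a root mean square of 1.69 for Tsga10, 1.43 for Tekt2 and 1.33 for Flacc1 (array medians subtracted). Among the 5 spots of opposed signs, the 10 pairs of different genes differed by 0.33 (Sun5 and Tekt2 5797) to 0.95 (Sun5 and Flacc1 9646), a closeness that follows from the signs they share. The other 32 pairs of different genes differed by 1.003 to 2.83, the farthest being Sun5 and Npm2. Which part of each transcript a spot covers was not examined.

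**Figure D2:**
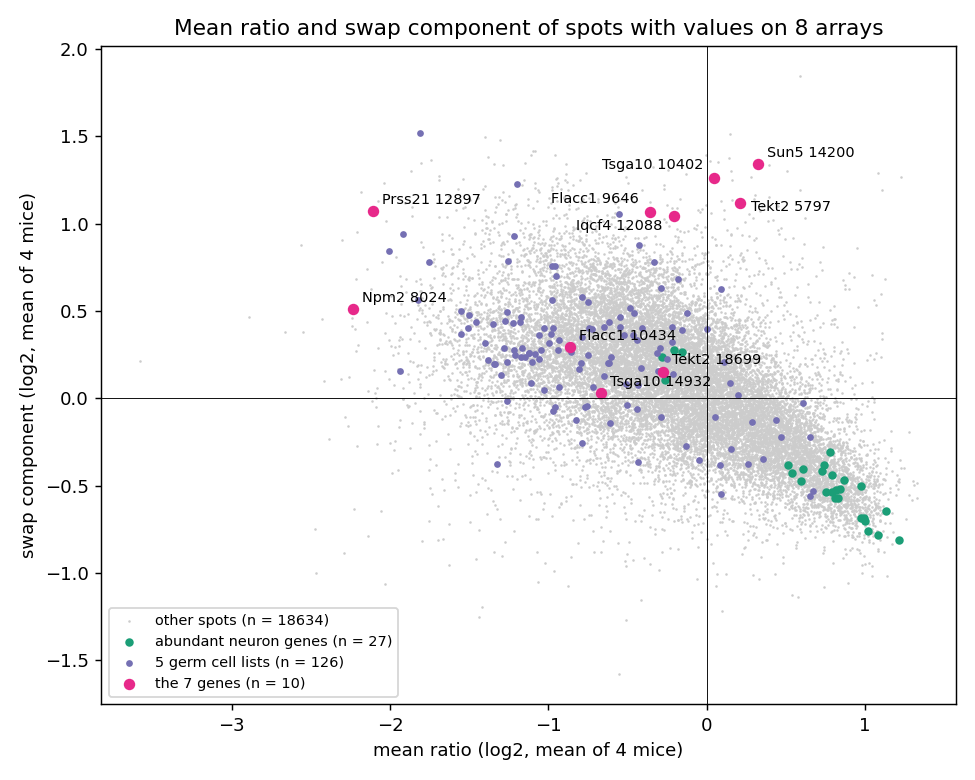
Swap component (vertical axis, log2) against mean ratio (horizontal axis, log2) of the spots with values on 8 arrays, each a mean over 4 mice, with the 7 genes in pink, the 5 germ cell lists in purple and abundant neuron genes in green. Sun5 (0.32, 1.34) and Tsga10 10402 (0.05, 1.26) stand at the upper edge of the cloud, Prss21 (-2.11, 1.07) and Npm2 (-2.23, 0.51) at the left edge, and most neuron genes at the lower right.

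Spots next in number, called neighbours here, were examined beside each of the 10. Whether they lie side by side on the slide was not examined. Over the 5 spots before and the 5 after each of the 10 spots, the median swap component lay between -0.02 and 0.36, and the median mean ratio between -1.001 and -0.06. Sun5 had a swap component of 1.34, against at most 0.52 among its neighbours, and Tsga10 10402 had 1.26, against at most 0.55. The gap was narrower for Tekt2 5797 (1.12, against at most 0.93), Flacc1 9646 (1.07, against 0.93) and Prss21 (1.07, against 0.87). Members picked for large values stand above their neighbours by that choice. The lowest mean ratio among the neighbours was -1.63 for Npm2 and -1.61 for Prss21.

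Deposited ratios were also set against ratios of small whole numbers. Within 0.001 on the log2 scale, 6.13% of all tested values matched a ratio of whole numbers up to 10. The spots of Sun5, Tsga10 10402, Tekt2 5797, Npm2 and Prss21 matched on no array, and so did Flacc1 10434. Tsga10 14932 and Tekt2 18699 matched on 2 arrays each, and Iqcf4 and Flacc1 9646 on 1 each. The ratios without their array constant were rounded to 3 decimals, as 98.7% to 100% of those between 0.05 and 0.3 fell on that grid. With that rounding allowed for, 7.71% of all values matched, as did Tsga10 14932 on 3 arrays and Flacc1 9646 on 2, with the other counts as before. The share of matches that unrelated values would give was not estimated, and without intensities no spot can be called weak or strong from a match.

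By the likeness of their values on the 8 arrays, the spot nearest to Sun5 among 11099 named ones was Dhh, desert hedgehog, a signal of the Sertoli cells of testis. It differed by a root mean square of 0.14 with array medians subtracted. Dhh stood at 1.07, 1.68, 1.78 and 1.66 with the mutant in Cy5, and at -0.84, -1.03, -1.05 and -1.03 with the mutant in Cy3. The next was Tekt2 (0.33). For Iqcf4 the nearest were Taf1a (0.39), a subunit of the RNA polymerase I selectivity factor, and Mfsd3 (0.41). For Npm2 they were Azin1 (0.57), an inhibitor of antizyme whose transcript is itself edited, and Fgd6 (0.58). For Prss21 they were Crisp2 (0.80), a protein of the acrosome and sperm tail, and Tbc1d10c (0.80).

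The rule for likeness took one spot per gene, that with the largest absolute mean ratio, which for Tsga10, Tekt2 and Flacc1 was the spot of mixed signs. Nearest to these were Sardh (0.35) and Pkmyt1 (0.37) for Tsga10 14932, Higd1a (0.41) and Isg20l2 (0.50) for Tekt2 18699, and Utp14a (0.46) and Adprm (0.50) for Flacc1 10434. The other spots were added after the values were seen. Nearest to Tsga10 10402 was Hsd11b1 (0.23), which regenerates glucocorticoid, then Tekt2 (0.35). Tekt2 5797 was nearest to Wwox (0.26) and Dhh (0.26), and Flacc1 9646 to Gtf3c5 (0.39) and Npas3 (0.42).

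**Figure D3:**
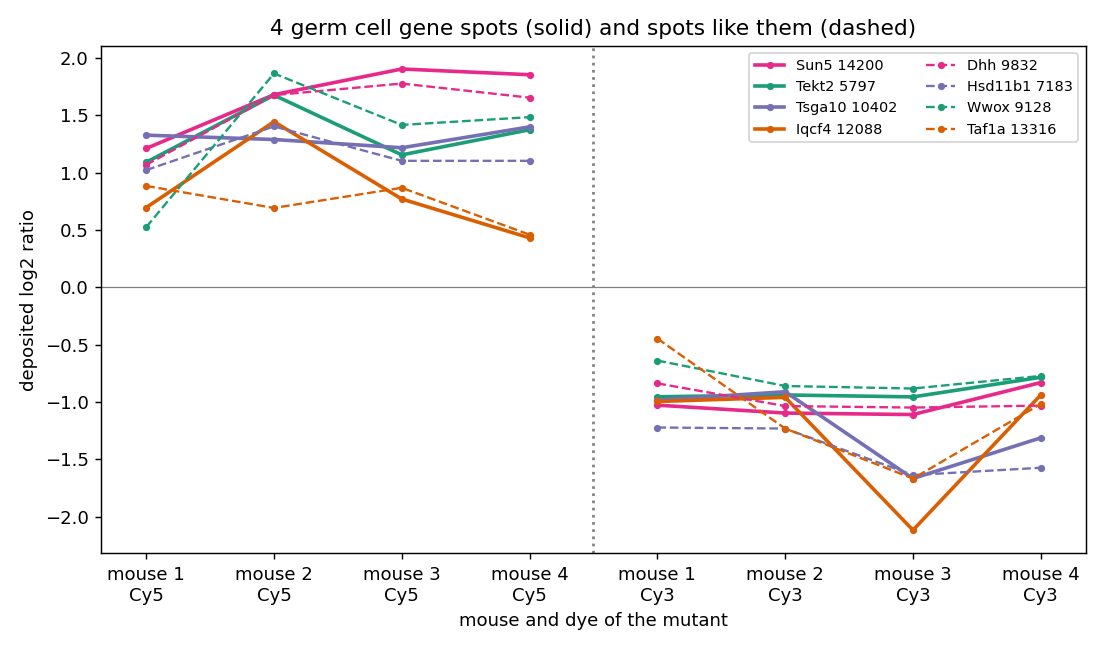
Deposited log2 ratios (vertical axis) on the 8 arrays (horizontal axis, mutant in Cy5 left of the dotted line, mutant in Cy3 right of it) for Sun5, Tekt2 5797, Tsga10 10402 and Iqcf4 as solid lines, and for Dhh, Hsd11b1, Wwox and Taf1a as dashed lines. The lines join values of one spot and mark no order of the mice; all 8 spots lie above 0 on the left and below 0 on the right.

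Promoter windows are shown for Tekt2 and Sun5, whose spots were the closest pair among the 7 genes. RefSeq windows of 300 bases (GRCm38.p6, 250 before the start and 50 after it) matched 6 of the 7 genes, in 11 windows. They were searched on both strands for the X-box, the paired site bound by RFX factors at many cilium genes. The motif was chosen after these windows were seen. An X-box was found in 2 overlapping windows of Tekt2 at the same bases, and in 0.892% of all 32851 windows. The Tekt2 window lies at chr4:126325639-126325938 on the minus strand, with the X-box in capitals 29 to 17 bases before the start. The Sun5 window lies at chr2:153871035-153871334 on the minus strand and does not hold the motif, so it has no capitals. A match is only a stretch of letters, and nothing was measured at these promoters.
Tekt2: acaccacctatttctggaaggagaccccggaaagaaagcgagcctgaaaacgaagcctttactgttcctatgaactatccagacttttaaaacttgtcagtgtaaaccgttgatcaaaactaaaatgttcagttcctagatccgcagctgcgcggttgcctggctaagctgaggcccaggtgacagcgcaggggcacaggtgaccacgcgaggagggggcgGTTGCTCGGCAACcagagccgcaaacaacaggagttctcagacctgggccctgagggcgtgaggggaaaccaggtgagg
Sun5: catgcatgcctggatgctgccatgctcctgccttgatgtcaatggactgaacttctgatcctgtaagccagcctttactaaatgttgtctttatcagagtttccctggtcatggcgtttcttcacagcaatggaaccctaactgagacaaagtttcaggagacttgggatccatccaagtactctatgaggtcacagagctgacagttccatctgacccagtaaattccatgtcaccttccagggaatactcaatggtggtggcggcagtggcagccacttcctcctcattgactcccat

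Whether other genes of the same cells behaved like these was examined with 5 lists of genes chosen by function, which leave out the 7. They are called germ cell lists here, though the list of flagellum and motile cilium holds axoneme genes shared with other tissues. Spots of these lists had a larger share of negative calls than the array at large, which does not allow for where they stand in the numbering. Around the 10 spots of the 7 genes, the spots next in number had median mean ratios of -1.001 to -0.06, against -0.25 over all spots. The spots 11 numbers before those of the lists, where names read without the shift fall, were also low. Those spots had a median of -0.54, and 117 of 138 were below 0. Spots at other distances from the lists were not tested. Of 231 listed genes 105 were on the array, with 136 spots tested, and 69 of these passed the limma test with a negative mean ratio (50.7%), against 18.5% of all 20595 spots. With a positive one 5 passed (3.68%), against 11.1% of all. Their median was -0.79, against -0.25 over all spots, and 117 of the 136 were below 0, against 13239 of all 20595. With array medians subtracted, 51 were negative and 6 positive, against 13.3% and 17% of all spots. The calls were absent without mouse 2, mouse 3 or mouse 4 (limma, 80, 83 and 84 spots at an unadjusted p below 0.05) and numbered 47 without mouse 1. The germ cell medians in those fits were -0.77, -0.80, -0.79 and -0.68. Over all spots the calls were likewise 0 without mouse 2, mouse 3 or mouse 4, and 3926 without mouse 1. The Cy5-mutant arrays by themselves gave no call in the lists (limma, 62 spots with unadjusted p below 0.05), and the Cy3-mutant arrays gave 65 negative and 5 positive ones. Over all spots these fits gave 0 calls, and 3908 negative and 2909 positive ones. With gene names read without the shift of 11, 40 of 138 spots were negative (29%) and 7 positive.

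Flagellum and motile cilium genes had 26 negative (49.1%) and 2 positive calls (3.77%) among 53 spots, with a median of -0.79. Over all spots, 18.5% were called negative and 11.1% positive. Catsper4, a subunit of the sperm calcium channel, stood at -1.84 ± 0.16 (moderated SE of limma, n = 4, adjusted p = 0.0153), with values between -2.12 and -1.16 on the 7 arrays that had one. Dnah11, a dynein heavy chain of motile cilia, stood at -1.75, and Spata19, a mitochondrial protein of sperm, at -1.55. The positive calls were Gapdhs, the glycolytic enzyme of the sperm tail (0.66 ± 0.14, adjusted p = 0.024), and Odf4, an outer dense fibre protein (0.65 ± 0.13, adjusted p = 0.0211, limma). The other spot of Gapdhs stood at 0.26 and missed the threshold, while that of Catsper4 stood at -1.11 and passed.

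Acrosome and sperm surface genes had 11 negative calls (45.8%, against 18.5% of all) and no positive one (against 11.1%) among 24 spots. Their median was -0.87. Adam5, a disintegrin of the sperm surface, stood at -2.01 ± 0.16 (adjusted p = 0.0153, limma). Its other spots stood at -0.55, which passed (limma adjusted p = 0.0498), and at -1.30, which did not (limma adjusted p = 0.139). Crisp2 stood at -1.82 and Zp3r, an acrosomal protein with values on 7 arrays, at -1.73. Spermatid differentiation genes had 17 negative (54.8%) and 2 positive calls (6.45%) among 31, against the same shares of all spots, with a median of -0.60. Spata16, a protein of the forming acrosome, stood at -1.92, Ccin, of the sperm head cytoskeleton, at -1.51 and Spata4 at -1.50. The positive calls were Spata6 (0.61 ± 0.15), needed to connect the sperm head and tail, and Actl7b (0.47 ± 0.13), an actin-like protein (limma adjusted p = 0.0339 and 0.0462).

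Germline and meiosis genes had 12 negative calls (60%, against 18.5% of all) and no positive one (against 11.1%) among 20 spots. Their median was -0.88. Mael, of the piRNA pathway, stood at -1.26 ± 0.14 (adjusted p = 0.0153, limma) and Ccna1, the meiotic cyclin, with values on 7 arrays, at -1.30. Dnmt3l, a partner of the germline DNA methyltransferases, stood at -1.81, but was below 0 on only 5 of 8 arrays. Oocyte genes had 3 negative (37.5%) and 1 positive call (12.5%, close to the 11.1% of all) among 8 spots, with a median of -0.98. Zp3, a glycoprotein of the egg coat, stood at -1.35, Zar1 at -1.25 and Btg4 at -0.63, both of maternal mRNA control, while Dppa3 stood at 0.67 ± 0.15 (adjusted p = 0.0283, limma). Npm2 and Prss21 lay lower than the lowest spot of the 5 lists, which was Adam5, as follows from how they were picked.

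**Figure D4:**
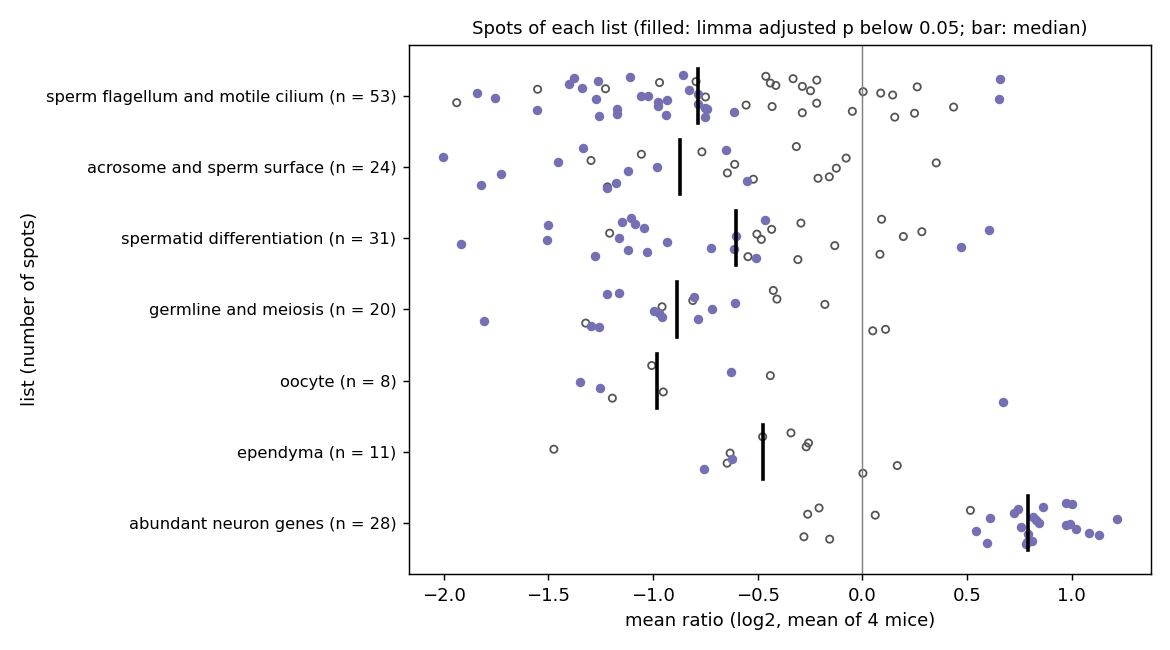
Mean ratio (horizontal axis, log2, mean of 4 mice) of each spot of the 5 germ cell lists, the ependyma list and the neuron list (rows), filled where the limma adjusted p was below 0.05, with a bar at the median. Medians of the germ cell lists lie between -0.98 and -0.60, that of neuron genes at 0.79.

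Of genes known from other brain cells, 18 abundant neuron genes had 28 spots, with a median of 0.79. Of these spots 22 were called positive (78.6%, against 11.1% of all) and none negative (against 18.5% of all). Ependymal genes, which mark the ciliated cells of brain, had 2 negative calls among 11 spots (18.2%, against 18.5% of all), with a median of -0.48. These were 1 spot of Foxj1 (-0.76 ± 0.14) and 1 of Ccdc113 (-0.63 ± 0.16), the limma adjusted p being 0.018 and 0.0362. The other spots of these genes missed the threshold, with Foxj1 at -1.47 and 0.17 and Ccdc113 at -0.34. Since the flagellum list also holds genes of motile cilia, the lists do not separate germ cells from ependyma. If the ratios are Cy5 over Cy3, the mean ratio holds no contrast of mutant and pool, so none of these signs is read as a level in the mutant. In bulk RNA, fewer cells of a type and less RNA per cell cannot be told apart either. On the single arrays the germ cell median lay between -0.52 and -0.38 with the mutant in Cy5, and between -1.64 and -0.69 with the mutant in Cy3. The neuron median lay between 0.10 and 0.55 with the mutant in Cy5, and between 1.14 and 1.41 with the mutant in Cy3. On all 8 arrays the germ cell lists stood below the array's median and neuron genes above it. Most spots of these lists stand in different stretches of the numbering, which this contrast does not allow for. The share of values at small whole-number ratios was 5.41% in the germ cell lists, 4.04% in neuron genes and 6.13% over all tested spots. It ran from 4.03% (spermatid differentiation) to 11.5% (oocyte) among the single germ cell lists, and was 12.6% in ependymal genes. What these differences depend on was not tested.

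**Figure D5:**
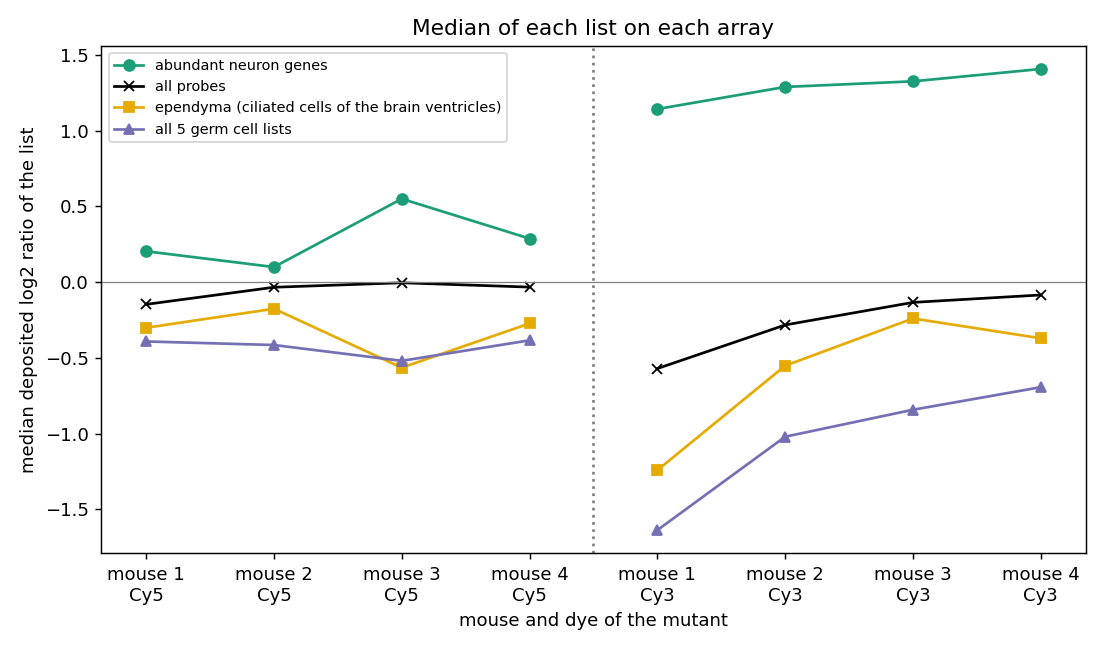
Median deposited log2 ratio (vertical axis) of neuron genes, all spots, ependymal genes and the 5 germ cell lists on each array (horizontal axis, mutant in Cy5 left of the dotted line, mutant in Cy3 right of it); lines join arrays of one orientation and mark no order of the mice. Germ cell lists lie below all spots, and neuron genes above, on all 8 arrays, with no allowance for where their spots stand in the numbering.

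The pattern of Sun5, above 0 with the mutant in Cy5 and below 0 with the mutant in Cy3, was found in 4 of 126 spots of the germ cell lists (3.17%), against 1.41% of all. These were Tssk1, a testis kinase (swap component 0.62), Gas8, of the axonemal regulatory complex (0.40), and the calcium channel subunits Catsperd (0.63) and Catsper1 (0.78). The reverse pattern was in none of the 126, and 44 of them (34.9%) were below 0 on all 8 arrays, against 12.4% of all. The limma test of the swap component called no spot as deposited (5785 at an unadjusted p below 0.05). With array medians subtracted it called 1.41% of all spots positive and 6.43% negative. Among the 126, 3 were then positive, namely Dnmt3l (1.41), Cfap206 (0.95) and Catsper1 (0.67), and 2 negative, namely Odf2 (-0.66) and Odf4 (-0.67), with limma adjusted p between 0.0383 and 0.045. The other spots of Odf2 and Cfap206 were not called. As deposited, their swap components were -0.13, -0.36 and 0.08 for Odf2, and 0.22 and 0.32 for Cfap206. Of 27 neuron spots, 14 were negative and none positive, and of 10 ependymal spots 1 was negative, Foxj1 spot 17437 (-0.81, limma adjusted p = 0.0383).

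Relatives of the 7 genes were taken by symbol after values were seen. Tekt1, the other tektin on the array, had a mean of -0.70 with the mutant in Cy5 and -1.64 with the mutant in Cy3, and its mean ratio of -1.17 ± 0.16 passed (limma adjusted p = 0.0158). Of the SUN domain genes, the widely expressed Sun1 had a swap component of -0.24 and Sun3, of spermatids, -0.27. The 2 spots of Sun2 had swap components of 0.78 and 0.38, the second without mouse 4, and the first passed with a mean ratio of -0.84 (limma adjusted p = 0.0426). Iqcf3 had 5 spots, with swap components of 1.10, 0.18, 0.05, 0.15 and 0.63. Its mean ratios of -1.33, -1.19, -1.28, -1.33 and -0.53 were all below 0, and 3 passed. Npm1, the ubiquitous nucleophosmin, stood at 0.82 ± 0.13 (limma adjusted p = 0.0161), of opposite sign to Npm2. The other serine proteases named Prss had 18 spots of 13 genes, of which 17 had mean ratios below 0, the sign of Prss21. The limma test called 5 of the 18 negative, namely Prss58 (-1.48), both spots of Prss40 (-1.06 and -0.80), Prss45 (-0.85) and Prss44 (-0.85), and 1 positive, Prss29 (0.56). Of all 20595 spots, 13239 had mean ratios below 0, 18.5% were called negative and 11.1% positive. With so few spots, the counts of Prss and Iqcf3 are a description and no result about these families.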

How the data were processed

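The deposited values, 8 columns of the series' value table, hold the log2 ratio of both channels, shifted by a constant on each array. Per the labels, RNA was taken with a column kit and labelled indirectly; how the authors scanned, background-corrected and normalised the arrays is not stated in the sources used here. The log2 scale was read from the deposited values. The top value of each array, log2 of 100000 plus its constant, was treated as missing (1 to 30 spots per array), as were 221 to 553 empty cells.

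Both arrays of a mouse were averaged, or differenced for the swap component, and limma 3.58.1 (R 4.3.3, intercept only) tested 4 mice against 0 over all spots with Benjamini-Hochberg adjustment, called at an adjusted p below 0.05. Spot numbers are those of the platform annotation plus 11, for annotated numbers up to 20000. This shift was found in the values, not in the labels. Symbols follow RefSeq (GRCm38.p6) by gene identifier. For the mean ratio a spot needed a value on either array of every mouse, and for the swap component on both. A mouse with a single value entered the mean ratio by that dye orientation. The members, lists, relatives and the shift were chosen with earlier results of these data known. Named genes were all spots of the members, the 2 genes nearest to each, and up to 3 called spots per germ cell list and direction with the largest absolute mean ratio. The number of arrays limits precision.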

Additional observations from a re-analysis of the deposited data

Results flagged for a closer look

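Among 40 groups of 4 values, 3 had a value far from the other 3 by Dixon's ratio, and chance flags about 1 in 20 groups. Tekt2 spot 5797 stood at -0.78 in mouse 4 with the mutant in Cy3, a narrow gap in a tight group. Tekt2 spot 18699 had a mean ratio of -1.59 in mouse 2, while the other mice lay between 0.10 and 0.22. Iqcf4 spot 12088 stood at -2.12 in mouse 3 with the mutant in Cy3, against -0.995 to -0.94 in the others.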

How the results depend on the processing

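The count of all spots past the threshold in the mean ratio, 6105, was 0 from the Cy5-mutant arrays by themselves (limma, 4633 with unadjusted p below 0.05) 6817 from the Cy3-mutant arrays, and 0 to 3926 with a mouse left out. It was 0 without mouse 2, mouse 3 or mouse 4. With array medians subtracted it was 6256, of which 56.1% were positive. The swap component, with 0 calls, had 1473 with array medians subtracted. The 74 calls of the germ cell lists were 0 from those same arrays (62 with unadjusted p below 0.05, median -0.47), 70 from the Cy3-mutant arrays (65 negative, median -1.03), 0 to 47 with a mouse left out, and 47 with names read at the same spot number, of which 40 were negative (29% of 138 spots). The causes were not tested. For the 10 spots of the 7 genes, subtracting array medians moved 1 mean ratio by over 1 SD and turned the sign of no mean ratio, but turned the swap component of Tsga10 14932 to -0.08. Leaving out a mouse moved none of the 40 values of either quantity by that much, but turned the mean ratio of Tsga10 10402 and Tekt2 18699 and the swap component of Tsga10 14932 and Tekt2 18699. Centring runs of 48 spots, added for the swap component after the data were seen, moved 5 mean ratios and 3 swap components. It turned the mean ratio of Iqcf4 and the swap component of Tsga10 14932. Sun5 went from a mean ratio of 0.32 to 1.05, with a swap component of 1.15, and Tsga10 10402 from 0.05 to 0.63, with 1.10. The mean ratio minus the swap component is the mean with the mutant in Cy3. For Sun5 both quantities came close after centring (1.05 and 1.15). Its mean with the mutant in Cy3 was then much smaller in size than the deposited -1.02. The opposed signs described above are those of the values as deposited, and signs on single arrays after centring were not examined. Read at the same spot number, also added later, 6 of 10 values of each quantity moved.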
